A study of Sus scrofa with 35 samples.

Results

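The HSP70 and HSP110 chaperones were followed in the longissimus dorsi muscle of the back in pigs held at a comfortable or at a high ambient temperature. Members were the probes whose gene name in the scanner files is 1 of 9 listed genes, HSPA1L, HSPA2, HSPA4, HSPA6, HSPA8, HSPA9, HSPA13, HSPA14 and HSPH1. This gave 14 of 60305 non-control probes, covering 8 of the 9 genes, and 13 of the 14 passed the filter on low values. No probe has HSPA6 as its gene name. A search of the probe descriptions for inducible HSP70 added 3 probes, all of which passed the filter. Of these, 2 are named HSP70.2, a gene for which the RefSeq tables give HSPA1A and HSPA1B as synonyms, and 1 is named HSP70, with a design record that the RefSeq tables list under HSPA6. Probes of 1 gene are numbered here from the brightest down, and the brightest kept probe represents the gene. A further 8 probes of the same genes, of which 7 passed the filter, were found after the data had been seen and are called further probes. They were found by their sequence, gene number, clone record or the annotation in the study's list of differentially expressed genes.

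The animals were castrated males raised in Guadeloupe, of the Creole breed, the Large White breed or the F1 cross between both. Thermoneutral pigs (TN) were kept at 24 °C. For heat stress (HS) the sample labels give 30 °C, while the protocol text speaks of 5 days at 32 °C and the methods place slaughter 4 or 5 days into that temperature, and the values here cannot settle which temperature holds. There were 6 pigs in each of Creole TN, Creole HS, F1 TN, Large White TN and Large White HS and 5 in F1 HS, with 1 array of total RNA per pig. According to the methods, slaughter of the TN pigs preceded the rise in temperature and that of the HS pigs, housed in separate pens, followed it. Temperature can therefore not be told apart from pen, age or day of slaughter. The methods also place littermates in every breed, and the labels do not say which pigs these are.

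HSP70 proteins are ATP-driven chaperones that hold unfolded stretches of other proteins and release them for folding. J-domain proteins, the HSP40 family, bring clients and speed ATP use, while nucleotide exchange factors, including the HSP110 proteins, reset the cycle. When proteins unfold, the transcription factor HSF1 drives the inducible members, above all HSPA1A, HSPA1B and HSPA6, while HSPA8 is made at all times. In skeletal muscle these chaperones serve protein turnover as well as stress.

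Before any value is read, the identity of a few probes matters. The probes that carry the comparison of HSPA2 with HSP70.2, and the HSPA8 probe that has a counterpart on the opposite strand, are shown 5′ to 3′ as they stand in the scanner files, in lower case with nothing marked, and each is 60 bases long.
HSP70.2 probe 1: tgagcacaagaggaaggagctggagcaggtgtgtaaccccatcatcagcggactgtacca
HSP70.2 probe 2: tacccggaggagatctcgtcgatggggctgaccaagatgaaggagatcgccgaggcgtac
HSPA2 probe 2: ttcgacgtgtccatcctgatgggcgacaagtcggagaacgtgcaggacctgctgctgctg
HSPA8 probe 2: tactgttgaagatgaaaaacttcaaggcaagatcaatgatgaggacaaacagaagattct
The design record of HSPA2 probe 2 is a protein entry for heat shock 70 kDa protein 2 and not a pig transcript. Without gaps, its closest match among the other family probes was HSP70.2 probe 2, with 23 of 60 bases the same. HSP70.2 probes 1 and 2, of 1 design record, also had 23 of 60 bases the same. This count therefore cannot show which transcript a probe binds. The GC content was 60% for HSPA2 probe 2, 55% for HSP70.2 probe 1 and 60% for HSP70.2 probe 2. HSPA8 further probe 3 shares a stretch of at least 20 bases in a row with the opposite strand of HSPA8 probe 2. The match covers only part of the probe, and which transcript it binds was not tested. No genome was used here, so no position is given for any probe.

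The 35 arrays had between 58.4% and 75.9% of their probes well above background, and no family spot was saturated. Of 11 muscle markers 10 were kept, all 10 well above background on every array, and their mean log2 intensity was 18.73 in HS and 18.78 in TN. The 75th percentile of the unscaled log2 intensity ran from 8.73 to 9.40 on TN arrays and from 8.88 to 9.62 on HS arrays, so HS arrays were brighter on average (9.24 against 9.05). The mean of the 9 kept leukocyte markers of 10, 8 of them well above background on every array, ran from 7.88 to 10.48 in TN and from 9.19 to 10.81 in HS. The arrays lay on 5 slides, of which 4 hold all 6 groups and the fifth holds 3 arrays of 2 groups. These are bulk samples, so fewer cells of a type and less RNA per cell cannot be told apart.

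The main question was whether these chaperone transcripts differed between HS and TN pigs whatever the breed. With temperature and breed in 1 limma model over 41517 kept probes, 16.0% of all probes passed an adjusted p of 0.05 (Benjamini-Hochberg), and 0 of the 13 member probes did. At an unadjusted p under 0.05 there were 2 of 13, HSPA2 probe 1 and HSPA13 probe 1, where 30.7% of all kept probes were. Of the 13 log2 differences 7 were above 0 and 6 below, with a median of 0.01 against -0.02 over all kept probes. All 3 inducible HSP70 probes lay below 0 and 0 of 3 passed, with 1 of 3 under 0.05 unadjusted. A p that misses the threshold does not show equal levels, so intervals are given with each gene.

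**Figure D1:**
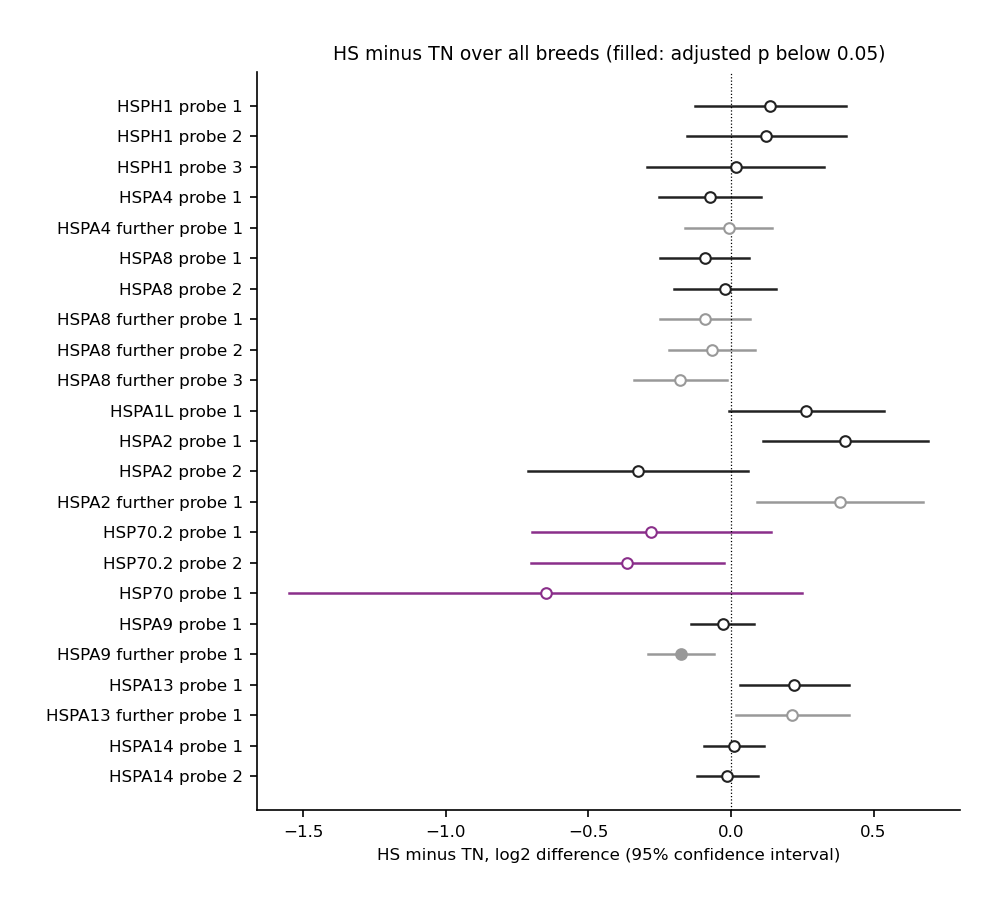
HS minus TN as a log2 difference of intensity (x axis) for each kept probe of the family (y axis), with 95% confidence intervals from the model of breed and temperature. Black marks member probes, purple the inducible HSP70 probes and grey the further probes, and a filled point passed an adjusted p of 0.05; the interval of HSP70 probe 1, from -1.55 to 0.25, is the widest of those drawn.

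The inducible genes came first in this question, since they are the classical targets of HSF1. HSP70 probe 1, listed under HSPA6, was between 7.47 and 12.78 on the log2 scale in Creole TN pigs, with a median of 8.31, and between 7.74 and 10.62 in Creole HS pigs, with a median of 8.23. In F1 TN pigs it ran from 8.41 to 10.93, with a median of 9.04. The 5 F1 HS pigs had 7.28, 7.65, 8.01, 8.33 and 10.31. The F1 groups thus overlapped, with 4 of the 5 HS pigs below every TN pig. In Large White TN pigs the values ran from 7.95 to 12.30, with a median of 9.56, and in Large White HS pigs from 8.01 to 10.85, with a median of 9.12. In every group the highest pig lay far above the median. Over all breeds the HS mean was 8.72 and the TN mean 9.36, a difference of -0.65 (SE 0.44, 95% confidence interval -1.55 to 0.25, limma adjusted p = 0.333), with 4 of 17 HS pigs above the TN mean of their breed.

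The HSP70.2 probes, for the main stress-inducible HSP70, gave narrower intervals. HSP70.2 probe 1 ran from 11.59 to 13.54 in Creole TN, with a median of 12.17, and from 10.98 to 12.89 in Creole HS, with a median of 11.69. It ran from 11.72 to 13.14 in F1 TN, with a median of 12.43, and the 5 F1 HS pigs had 11.31, 11.68, 11.81, 12.25 and 13.03. In both breeds the HS pigs reached lower but shared most of the TN range. In Large White it ran from 10.999 to 13.27 in TN, with a median of 12.15, and from 12.01 to 12.42 in HS, with a median of 12.09, so the HS pigs lay inside the TN range. The difference between HS and TN was -0.28 for probe 1 (SE 0.21, interval -0.70 to 0.14, limma adjusted p = 0.376, 6 of 17 HS pigs above the TN mean of their breed). For probe 2 it was -0.36 (SE 0.17, interval -0.70 to -0.03, adjusted p = 0.131, unadjusted 0.0357, 5 of 17). With breed means removed, both probes were below 0 within each of the 4 slides that hold all groups, between -0.63 and -0.02 for probe 1 and between -0.54 and -0.21 for probe 2. The interval of probe 1 thus reached up to 0.14 on the log2 scale, and that of probe 2 lay wholly below 0, though probe 2 did not pass after adjustment. These intervals are not adjusted for the number of probes. Their model treats pigs as independent, with no term for pen, litter or slaughter day. By breed, probe 1 gave -0.50 within Creole, -0.41 within F1 and 0.06 within Large White (interval -0.67 to 0.78).

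HSPA8, the housekeeping HSC70, is a constitutive cytosolic member. HSPA8 probe 1 ran from 15.88 to 16.95 in Creole TN, 15.89 to 16.36 in Creole HS, 15.98 to 16.47 in F1 TN, 15.89 to 16.53 in Large White TN and 16.01 to 16.40 in Large White HS. The 5 F1 HS pigs had 15.78, 15.98, 16.01, 16.17 and 16.28. The groups overlapped throughout, and the pooled SD of 0.24 was close to the median of 0.23 over all kept probes. HS differed from TN by -0.09 (SE 0.08, interval -0.25 to 0.06, limma adjusted p = 0.446). HSPA8 probe 2 and the further probes 1 and 2 gave -0.02, -0.09 and -0.07, none of which passed. Further probe 2 has the identical sequence to HSPA8 probe 1 and further probe 1 shares a stretch with it, so these further probes are no independent measures. HSPA8 further probe 3, which matches the opposite strand of HSPA8 probe 2 only in part, gave -0.18 (SE 0.08, adjusted p = 0.124). Its correlation with HSPA8 probe 2 over the 35 pigs, group means removed, was 0.05.

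HSPA1L and HSPA2 are cytosolic HSP70s best known from the testis. HSPA1L ran from 6.29 to 8.55 over all pigs and differed by 0.26 (SE 0.13, interval -0.01 to 0.54, limma adjusted p = 0.176), with 13 of 17 HS pigs above the TN mean of their breed. It was above 0 on all 4 slides that hold all groups. HSPA2 probe 1 was the member probe nearest the threshold. It ran from 8.60 to 9.65 in Creole TN, with a median of 9.09, and from 8.74 to 9.99 in Creole HS, with a median of 9.46. In F1 TN it ran from 8.53 to 9.97, with a median of 9.26, and the 5 F1 HS pigs had 9.49, 9.52, 9.83, 10.33 and 10.63. The F1 groups overlapped in the upper part of the TN range. In Large White it ran from 8.45 to 9.82 in TN, with a median of 9.41, and from 9.01 to 10.12 in HS, with a median of 9.64. Over all breeds the difference was 0.40 (SE 0.14, interval 0.11 to 0.69, limma adjusted p = 0.0506), with 14 of 17 HS pigs above the TN mean of their breed and 3 of those 4 slides above 0. HSPA2 further probe 1, which has the identical sequence, gave 0.38 (SE 0.14, adjusted p = 0.0626). The call turned on the processing. HSPA2 probe 1 passed under 8 of the 13 alternatives counted for HSPA2. Of the 35 fits that left out 1 array, it passed in 13 and did not in 22. Those alternatives include the mean of both HSPA2 probes, which is not a refit of probe 1. With array brightness as a covariate the difference was 0.34 (adjusted p = 0.209) and with the leukocyte marker mean 0.20 (adjusted p = 0.474).

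HSPA2 probe 2 went the other way. It ran from 8.14 to 10.13 in Creole TN, with a median of 8.62, and from 7.26 to 8.93 in Creole HS, with a median of 8.30. In F1 TN it ran from 8.13 to 9.76, with a median of 8.85, and the 5 F1 HS pigs had 8.09, 8.12, 8.30, 8.58 and 9.41. In Large White it ran from 7.81 to 9.49 in TN and from 8.22 to 8.69 in HS, with a median of 8.50 in each. The difference between HS and TN was -0.33 (SE 0.19, interval -0.71 to 0.06, limma adjusted p = 0.248), with 6 of 17 HS pigs above the TN mean of their breed. The mean of both probes named HSPA2 differed by 0.04 (adjusted p = 0.884). Between pigs, HSPA2 probe 2 followed HSP70.2 probe 1 (r = 0.952) more closely than HSPA2 probe 1 (r = 0.347), as described below. That mean is therefore not read as a level of HSPA2.

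**Figure D2:**
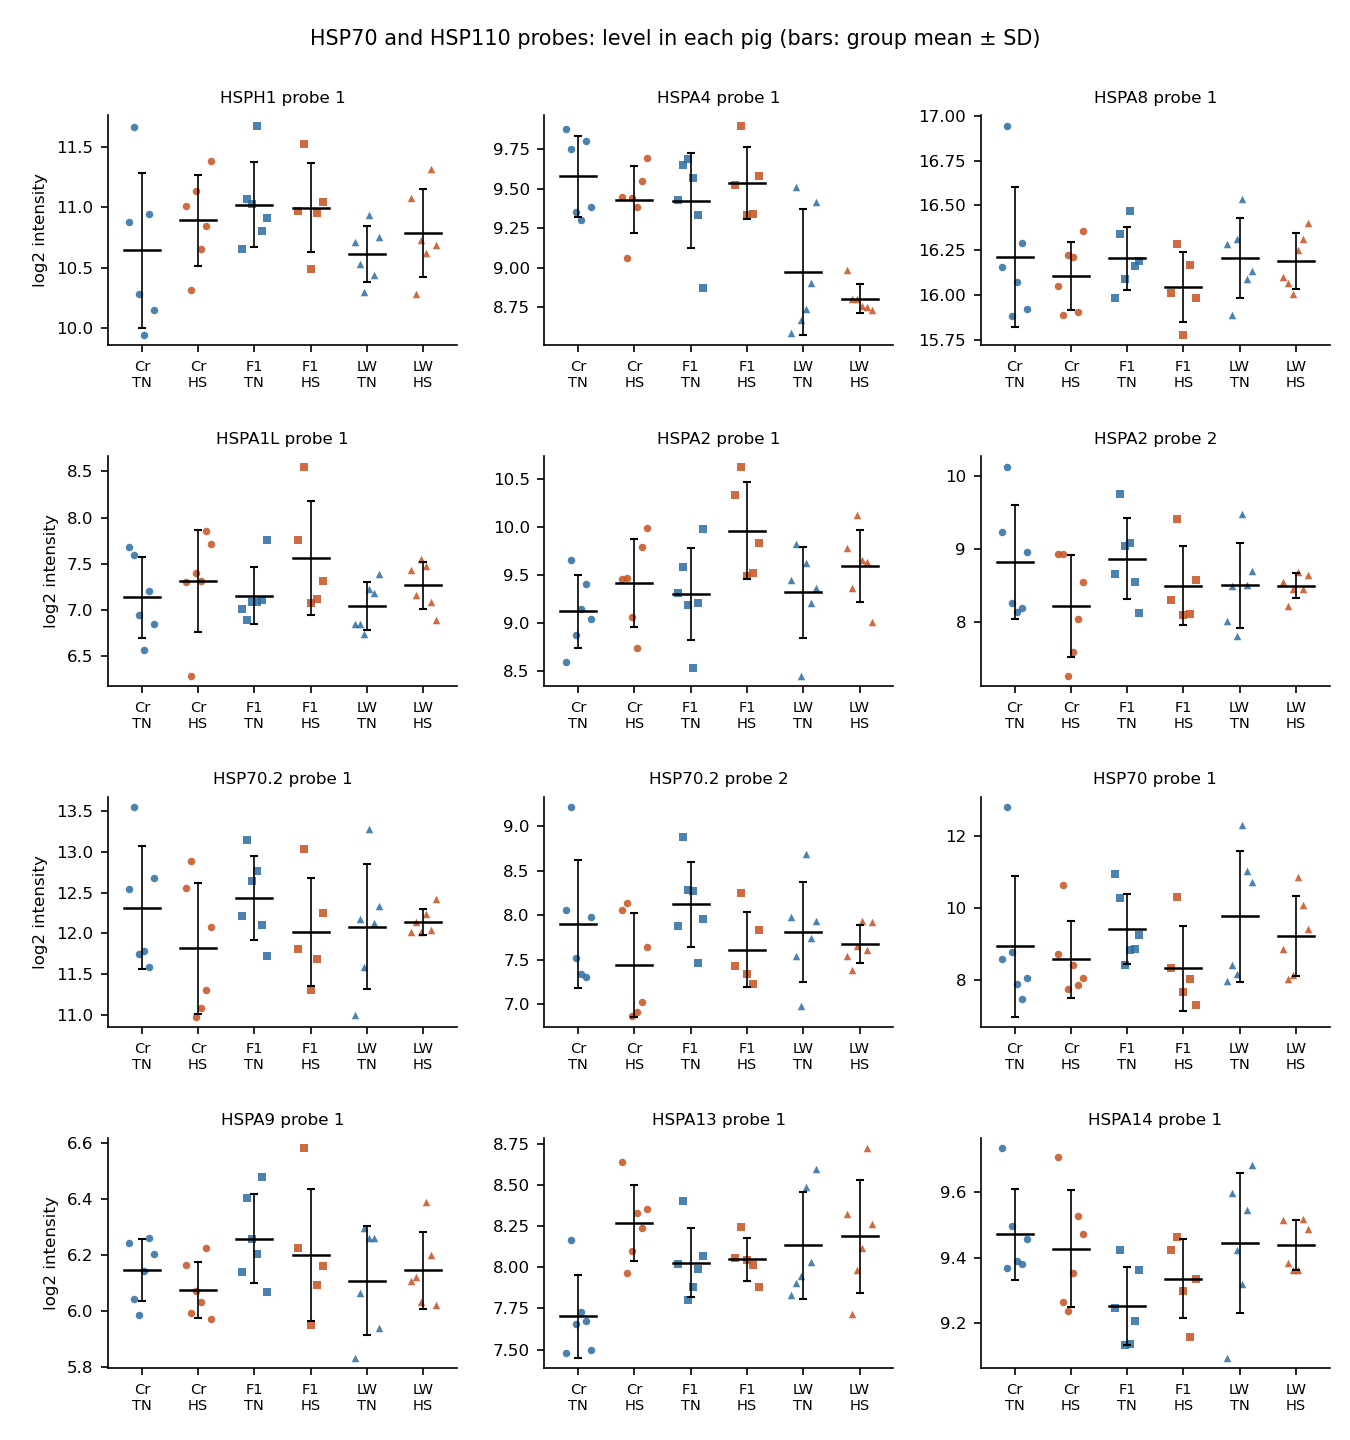
Log2 intensity (y axis) of 12 family probes in each pig, by breed (Cr, Creole; LW, Large White) and temperature (x axis), with bars for the group mean ± SD. Blue marks TN and orange HS, and each panel has its own scale; HSP70 probe 1 spans 7.28 to 12.78, while HSPA9 probe 1 spans 5.83 to 6.58.

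HSPH1 and HSPA4 are the HSP110 members, which act as nucleotide exchange factors for HSP70. HSPH1 probe 1 ran from 9.94 to 11.67 in Creole TN, with a median of 10.58, and from 10.32 to 11.39 in Creole HS, with a median of 10.93. It ran from 10.66 to 11.68 in F1 TN, with a median of 10.97, and the 5 F1 HS pigs had 10.49, 10.96, 10.97, 11.05 and 11.53. In Large White it ran from 10.30 to 10.93 in TN, with a median of 10.62, and from 10.29 to 11.32 in HS, with a median of 10.71. HS and TN overlapped in each breed. The difference was 0.14 (SE 0.13, interval -0.13 to 0.40, limma adjusted p = 0.505), and HSPH1 probes 2 and 3 gave 0.12 and 0.02. HSPH1 probe 4 was well above background on 4 of 35 arrays and was not tested. For HSPA4 the HS and TN means were 9.24 and 9.33, a difference of -0.07 (SE 0.09, interval -0.25 to 0.11, adjusted p = 0.615).

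The remaining members work in other compartments. HSPA9, or mortalin, is the HSP70 of the mitochondrial matrix. HSPA9 probe 1 ran from 5.83 to 6.58 over all pigs and differed by -0.03 (SE 0.05, interval -0.14 to 0.08, limma adjusted p = 0.762). As printed in the scanner files that probe has a stop in every reading frame, while the opposite strand has 2 frames without one, and its design record is a protein entry. HSPA9 further probe 1 is assigned to the gene by the annotation of the study. That annotation was read from the study's list of genes differing between HS and TN over its tissues. The probe was thus not chosen apart from temperature, and its call is no independent support for a change. It ran from 7.59 to 8.24 in TN and from 7.53 to 8.02 in HS. It fell by 0.17 on the log2 scale (SE 0.06, interval -0.29 to -0.06, limma adjusted p = 0.0344, 4 of 17 HS pigs above the TN mean of their breed). Within Creole the difference was -0.31 and within F1 -0.27, with no HS pig above the TN mean in either, while within Large White it was 0.05, with 4 of 6 above (interaction unadjusted p = 0.0141, adjusted p = 0.963). The call over all breeds was lost under median scaling (adjusted p = 0.213), spike-in scaling (-0.04, adjusted p = 0.840), with the leukocyte marker mean (adjusted p = 0.0984) and without any 1 of 7 arrays (adjusted p up to 0.0614). Those arrays were Creole TN replicate 1, Creole HS replicates 2 and 3, F1 TN replicates 3 and 4, F1 HS replicate 4 and Large White TN replicate 3. HSPA14, a ribosome-linked HSP70, was nearly flat, at 0.01 and -0.01 for its 2 probes (SE 0.05 each).

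HSPA13, a short HSP70 that lacks the peptide-binding domain and sits at microsomes, was the member with a called difference within a breed. In Creole TN pigs probe 1 ran from 7.48 to 8.17, with a median of 7.66, and in Creole HS pigs from 7.97 to 8.64, with a median of 8.28. All 6 HS pigs lay above the TN mean, and the highest TN pig, replicate 2, lay inside the HS range. In F1 TN it ran from 7.80 to 8.40, with a median of 8.004, and the 5 F1 HS pigs had 7.88, 8.02, 8.04, 8.06 and 8.25. In Large White it ran from 7.83 to 8.59 in TN, with a median of 7.99, and from 7.71 to 8.72 in HS, with a median of 8.19. In these breeds the temperatures overlapped almost wholly.

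Within Creole, HSPA13 probe 1 rose by 0.57 in HS on the log2 scale (SE 0.15, interval 0.27 to 0.87, 1.48-fold, limma adjusted p = 0.0409). It was the 1 member probe of 13 called, where 1.91% of all kept probes were called in that contrast, and the 1 at an unadjusted p under 0.05, where 21.5% were. The difference was 0.02 (SE 0.15, interval -0.29 to 0.34) within F1 and 0.05 (SE 0.15, interval -0.25 to 0.35) within Large White. The breed by temperature interaction was not called for HSPA13 (moderated F-test, unadjusted p = 0.0228, adjusted p = 0.963). HSPA13 further probe 1, with the identical sequence, gave 0.48 within Creole (SE 0.16, interval 0.16 to 0.81, adjusted p = 0.0900), with 6 of 6 HS pigs above the TN mean. Within the 4 slides that hold both Creole groups probe 1 gave between 0.28 and 0.81, but with slide as a fixed block the call was lost (0.53, adjusted p = 0.0681). It was also lost under 75th percentile scaling (0.62, adjusted p = 0.0513), under spike-in scaling (0.69, adjusted p = 0.139), with no filter (0.57, adjusted p = 0.0533) and without any 1 of 9 of the 12 Creole arrays. Array brightness and leukocyte markers moved with temperature in these arrays: with brightness as a covariate the difference was 0.36 (adjusted p = 0.194), and with the leukocyte marker mean 0.25 (adjusted p = 0.502). Their part in the result was not tested beyond these fits.

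In the other contrasts the members stood close to the background. Within F1, 0.00482% of all probes were called, 8.30% had an unadjusted p under 0.05, of the member probes 0 of 13 were called, with HSPA2 probe 1 (0.66, SE 0.26, limma adjusted p = 0.435, 5 of 5 HS pigs above the TN mean) the 1 probe at an unadjusted p under 0.05. Within Large White 0.00482% of all probes were called and 0 of 13 members, with 0 of 13 at an unadjusted p under 0.05 against 16.6% of all probes. The interaction called 0% of all probes, with 1593 (3.84%) at an unadjusted p under 0.05, and 0 of 13 members. Of the 13 member probes, HSPA13 probe 1 was the 1 under 0.05 unadjusted there.

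HSPA4 was the member that differed between breeds. HSPA4 probe 1 ran from 9.31 to 9.88 in Creole TN, with a median of 9.57, and from 9.06 to 9.70 in Creole HS, with a median of 9.45. In Large White it ran from 8.59 to 9.51 in TN, with a median of 8.82, and from 8.73 to 8.99 in HS, with a median of 8.78. The breeds did not overlap in HS, while in TN 2 Large White pigs lay inside the Creole range. In F1 TN it ran from 8.87 to 9.69, with a median of 9.50, and the 5 F1 HS pigs had 9.34, 9.34, 9.53, 9.58 and 9.90, near the Creole values.

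With temperature in the model, HSPA4 probe 1 was higher in Creole than in Large White by 0.62 (SE 0.11, interval 0.40 to 0.83, 1.53-fold, limma adjusted p = 0.000514), and 12 of 12 Creole pigs lay above the Large White mean at their temperature. It was the 1 call of 13 member probes, where 3.64% of all kept probes were called, and the 1 at an unadjusted p under 0.05, where 15.4% were. HSPA4 further probe 1, found by its clone record, gave 0.41 (SE 0.09, adjusted p = 0.00643, 11 of 12 Creole pigs), a call that was lost under spike-in scaling (0.33, adjusted p = 0.167). Within slides and temperatures probe 1 gave between -0.18 and 1.23, above 0 in 7 of 8 comparisons, and the further probe between -0.02 and 0.91, above 0 in 7 of 8. With TN arrays alone the difference was 0.61 for probe 1 (adjusted p = 0.138) and 0.28 for the further probe (adjusted p = 0.373), and neither passed with these fewer arrays. The order of the 6 group means was Creole TN, F1 HS, Creole HS, F1 TN, Large White TN and Large White HS, and the gap from F1 TN to Large White TN (0.45) was the only neighbouring gap above the pooled SD of 0.27. Of the 16 kept member and inducible probes, HSPA13 probe 1 was the other one with such a gap, of 0.33 from F1 TN down to Creole TN against an SD of 0.26. For all others no neighbours in the order of group means differed by more than their spread.

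**Figure D3:**
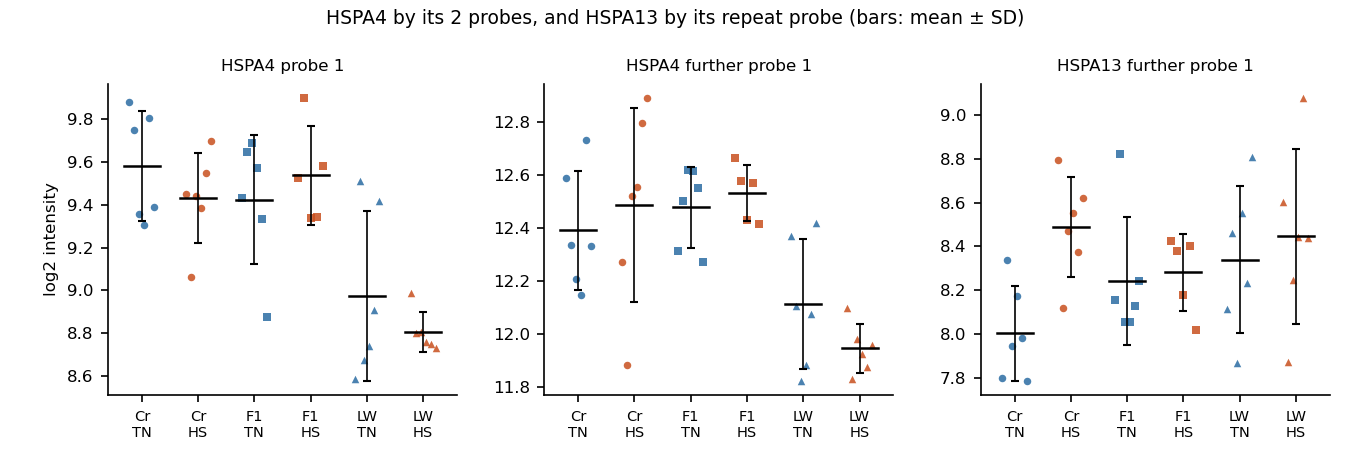
Log2 intensity (y axis) of both HSPA4 probes and of HSPA13 further probe 1 in each pig by breed (Cr, Creole; LW, Large White) and temperature (x axis), with bars for the group mean ± SD; blue is TN and orange HS. Creole and F1 pigs lie above most Large White pigs for HSPA4, and for HSPA13 the Creole TN mean of 8.005 lies below the Creole HS mean of 8.49.

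The F1 cross was also set against the midpoint of its parents. Of all kept probes 0.246% departed from it, and of the members 0 of 13, with 3 at an unadjusted p under 0.05, where 7.35% of all kept probes were. The F1 pigs lay 0.27 above the midpoint for HSPA4 probe 1 (SE 0.09, interval 0.08 to 0.47, limma adjusted p = 0.377, 10 of 11 F1 pigs above it) and 0.27 for its further probe (adjusted p = 0.247, 11 of 11). HSPA14 probe 1 gave -0.15 (adjusted p = 0.415, 1 of 11 above) and HSPA14 probe 2 -0.11 (adjusted p = 0.679, 2 of 11). All 3 tested HSPH1 probes gave 0.28, none past the threshold (adjusted p from 0.682 to 0.790). The median over the 13 members was 0.16, against -0.003 over all kept probes.

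The spread between pigs of 1 group was wide for the inducible genes. HSP70 probe 1 ranged from 7.28 to 12.78 over all 35 pigs, a 45.4-fold range, and its pooled SD within groups was 1.41, while the median SD of all kept probes was 0.23. As large an SD was found for 59 kept probes, or 0.142%. HSP70.2 probe 1 had an SD of 0.65, reached by 3.24% of kept probes, and HSP70.2 probe 2 an SD of 0.52, reached by 6.1%. Members by name came near these: HSPA2 probe 2 had an SD of 0.59, reached by 4.28%. For HSPH1 probe 3 the share was 7.89%, for HSPA2 probe 1 9.82% and for HSPA1L 11.4%. At the other end, HSPA14 probe 1 and HSPA9 probe 1 had SDs of 0.15 and 0.16, which 87.3% and 82.1% of kept probes reached. The inducible probes were thus among the most variable of these arrays, though a wide spread was not theirs alone. The HSPA9 and HSPA14 probes were among the steadier ones.

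In some groups a single pig was at the edge for many of the probes. F1 HS replicate 2 was the highest of its group for 15 of the 16 kept member and inducible probes. Creole TN replicate 2 was the highest of its group for 11 of 16, with 12.78 for HSP70 probe 1, where the next pig of its group had 8.76. F1 HS replicate 3 was the lowest of its group for 10 of 16. Both of the high pigs were hybridised on slide 1, but the slide was mixed. On it Large White TN replicate 1 was the lowest of its group for 7 of 16 and F1 TN replicate 1 for 5. Creole TN replicate 1, also there, was the highest of its group for 4. A part of the slide was not tested. Other pigs were mixed: Creole HS replicate 2 was the lowest of its group for 9 of 16 and the highest for 4, among them HSP70 probe 1 at 10.62, and Creole TN replicate 2 was itself the lowest for 2.

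To see how far the probes moved together, correlations over the 35 pigs were computed after subtracting the mean of each group. Of the 28 pairs among the 8 representative member probes 27 were above 0, with a median r of 0.289 and a range from -0.20 to 0.75. At a permutation p adjusted over the 28 pairs 7 passed by Pearson's r, of which 6 also passed by Spearman's rho. No such counts were made over pairs of other kept probes, so both counts lack a background and are not read as a trait of the family. HSPH1 and HSPA8, the exchange factor and the chaperone, were the closest (r = 0.753, rho = 0.680, permutation p = 1e-05, the smallest that 100000 draws can give, adjusted 0.00028; rho permutation p = 5e-05, adjusted 0.0014). Without the 2 pigs farthest from the median of HSPA8 r was 0.611, with slide means removed 0.688 and without Creole TN replicate 2 0.646. It was above 0 within each of the 6 groups, from 0.294 to 0.898. HSPH1 also paired with HSPA1L (r = 0.579), HSPA13 (0.508) and HSPA4 (0.499), HSPA8 with HSPA13 (0.484), and HSPA1L with HSPA2 probe 1 (0.477) and HSPA4 (0.429). The pair HSPH1 and HSPA13 did not pass by rho (adjusted 0.0718), and that of HSPA8 and HSPA13 had r = 0.0694 under 75th percentile scaling. Among all 41516 other kept probes HSPH1 ranked 5734 and HSPA8 6173 in likeness to HSPA13, so many other probes followed HSPA13 more closely. The pair HSPA1L and HSPA4 rested on few pigs, since r was 0.230 without the 2 farthest. With array brightness removed 1 of 28 pairs passed by r, that of HSPH1 and HSPA8 at r = 0.721, and 4 passed by rho. The median r was then 0.214. With slide means removed 3 passed by r and 3 by rho. The part of brightness in these pairs was not tested.

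**Figure D4:**
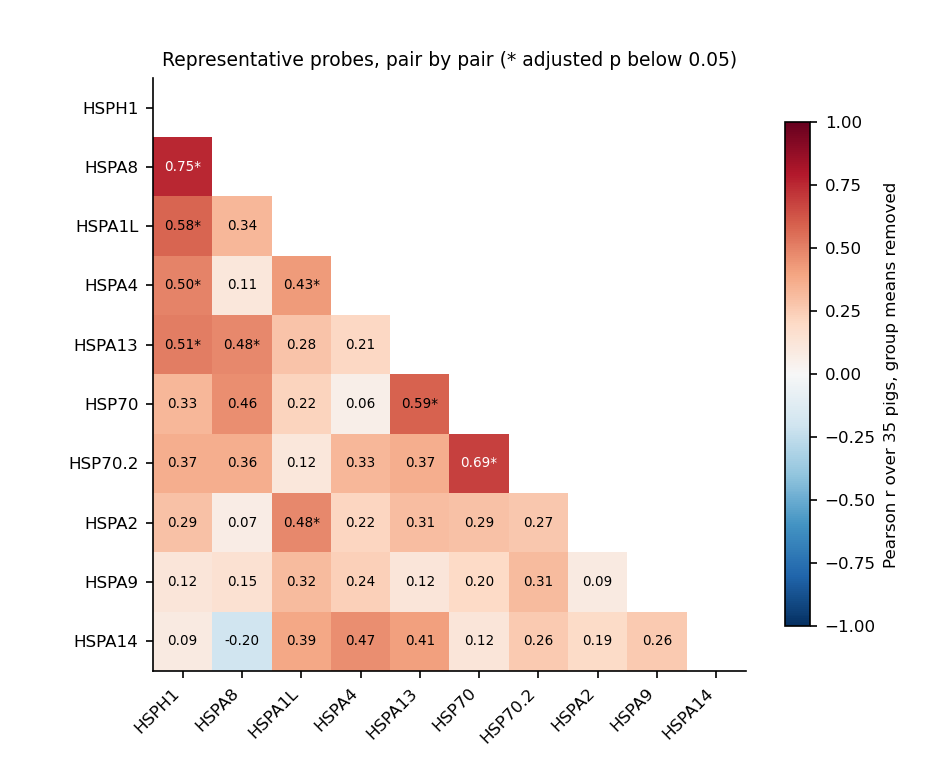
Pearson r over 35 pigs, group means removed, for each pair of 10 probes, the 8 representative member probes and the first HSP70 and HSP70.2 probes; colour runs from -1 (blue) to 1 (red). An asterisk marks an adjusted permutation p below 0.05; the highest value is 0.75, for HSPH1 with HSPA8.

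HSPA2 probe 2 did not follow HSPA2 probe 1. This comparison was chosen after the data had been seen. Over the 35 pigs, group means removed, HSPA2 probe 2 had r = 0.952 with HSP70.2 probe 1 (rho = 0.946) and r = 0.923 with HSP70.2 probe 2 (rho = 0.877), both at a permutation p of 1e-05, the smallest the draws can give, adjusted over 4 pairs 2e-05. Among all 41516 other kept probes HSP70.2 probe 1 ranked 1 for HSPA2 probe 2, and HSPA2 probe 2 ranked 1 for each HSP70.2 probe. The 2 HSP70.2 probes had r = 0.858 with each other. With HSPA2 probe 1 the correlation of HSPA2 probe 2 was 0.347 (rho = 0.292, permutation p = 0.0605 and 0.117). Without the 2 farthest pigs r was 0.942 and 0.899 with the HSP70.2 probes and 0.231 with HSPA2 probe 1. HSPA2 probe 1 in turn had r = 0.943 with its identical further probe, each ranking 1 for the other. In the printed sequences HSPA2 probe 2 has no long match to either HSP70.2 probe, but the 2 HSP70.2 probes have none to each other. Matches between probes cannot show which transcript HSPA2 probe 2 binds, and this was not tested. By its gene name HSPA2 probe 2 stays among the 13 member probes counted here and in the mean of both HSPA2 probes.

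**Figure D5:**
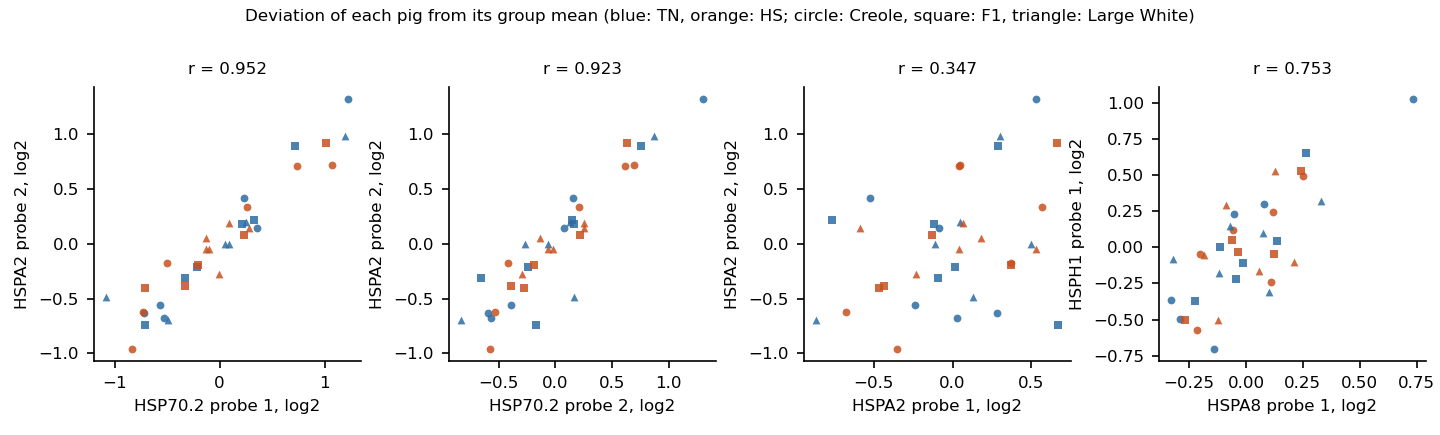
Deviation of each pig from its group mean (log2 intensity) for 4 pairs of probes, with r above each panel; blue is TN, orange HS, circles Creole, squares F1 and triangles Large White. HSPA2 probe 2 lies on a line with both HSP70.2 probes (r = 0.952 and 0.923) and scatters against HSPA2 probe 1 (r = 0.347), and the last panel shows HSPH1 against HSPA8 (r = 0.753).

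Other genes with several probes could be judged the same way. The 3 tested HSPH1 probes had r from 0.822 to 0.961 with each other, HSPA8 probes 1 and 2 0.822, HSPA14 probes 0.729, HSPA13 probe 1 and its repeat 0.899, and HSPA4 probe 1 and its further probe 0.587. HSPA9 probe 1 and HSPA9 further probe 1 had r = 0.317, at rank 3746 of 41516, so the 2 are not interchangeable. HSP70 probe 1 had r = 0.686 with HSP70.2 probe 1 (rho = 0.522, adjusted permutation p = 0.00102 and 0.0202 over 17 pairs) and r = 0.589 with HSPA13 (rho = 0.587, adjusted 0.0122 and 0.0202), though at rank 4357 of 41516 for HSPA13 probe 1.

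Over 9264 named genes, those most like HSPH1 over the 35 pigs, group means removed, were MRPL35, a mitochondrial ribosomal protein (r = 0.765), BAG3, an HSP70 exchange factor of muscle (0.760), HSPA8 (0.753), the small heat shock protein HSPB8 (0.746) and CCT2, a subunit of the cytosolic chaperonin (0.715). For HSPA8 they were HSPH1 (0.753), CPB2 (0.731), whose probe was well above background on 11 arrays only, GJB1 (0.714), DDX23 (0.704) and SERPINC1 (0.704).

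The partners of HSP70 were read from a list of 33 genes, of which 24 had a kept probe. In HS minus TN 1 was higher and 3 were lower past the threshold, 20 were not called, and 11 had an unadjusted p under 0.05, where 30.7% of all kept probes had. The median difference was -0.05, against -0.02 over all kept probes, and 16.0% of all probes were called. HSP90AB1, the constitutive HSP90 that takes clients from HSP70, ran from 15.31 to 16.36 in TN and from 15.85 to 16.59 in HS and rose by 0.43 (SE 0.08, interval 0.27 to 0.58, limma adjusted p = 0.000497, 17 of 17 HS pigs above the TN mean of their breed). The J-domain proteins DNAJA2 and DNAJB5 fell by 0.24 (SE 0.06, adjusted p = 0.00848) and by 0.17 (SE 0.05, adjusted p = 0.0236). STUB1, the ubiquitin ligase CHIP that acts on HSP70 clients, fell by 0.22 (SE 0.07, adjusted p = 0.0214). Of the 8 J-domain proteins tested 2 were lower and 6 not called, among them DNAJB1 at 0.15 (SE 0.10, adjusted p = 0.354). Of the 7 nucleotide exchange factors 0 were called, with BAG3 at -0.06 (SE 0.09). HSP90AA1 differed by 0.27 (SE 0.12, interval 0.02 to 0.52, adjusted p = 0.128), with 13 of 17 HS pigs above the TN mean of their breed. HSF1 ran from 11.92 to 12.56 in TN and from 11.75 to 12.21 in HS, a difference of -0.15 (SE 0.06, interval -0.27 to -0.04, adjusted p = 0.0626). The endoplasmic reticulum HSP70, HSPA5, differed by -0.01 (SE 0.13), but by -0.38 (adjusted p = 0.0234) once the leukocyte marker mean was in the model. Under spike-in scaling and with brightness as a covariate the count of called partners was 1, HSP90AB1, which was called under all 12 alternatives and with each array left out. With the leukocyte marker mean, which moved with temperature, HSP90AB1 gave 0.22 (adjusted p = 0.0337), DNAJA2 -0.24 (adjusted p = 0.0485), and STUB1 and DNAJB5 lost their calls (adjusted p = 0.495 and 0.249). DNAJA2 also lost its call under median scaling (adjusted p = 0.0616).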

How the data were processed

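RNA of 35 muscle samples was labelled with Cy3 by the authors and hybridised to 1-colour Agilent porcine arrays, 1 array per pig, and spots were quantified with Feature Extraction (10.10.1.1 in the submitters' processing notes). The deposited scanner files hold spot intensity on a linear scale. The deposited value table holds log2 values of 40649 probes, quantile-normalised and filtered by the authors, and each column was closest to its own array (lowest Pearson r 0.99998).

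The median spot intensities of the scanner files, with no background subtracted, were brought to a common distribution by quantile normalisation and log2 was taken, with 105 outlier spots missing. A probe was kept if any group had it well above background in 75% or more of its arrays (41517 probes). Differences were estimated with limma (3.58.1, R 4.3.3), for temperature and breed in an additive model and within breeds with 1 mean per group, all two-sided, with Benjamini-Hochberg adjustment over all kept probes. The models hold no term for pen, litter or slaughter day, which the labels do not give, and treat pigs as independent. Correlations used 100000 permutations within groups. Gene names came from the scanner files and the RefSeq tables given. All member genes, the inducible probes and the called partners were named. HSF1, HSPA5, DNAJB1, BAG3 and HSP90AA1 were listed to be named whether called or not. The values of HSPA5, DNAJB1, BAG3 and HSP90AA1 and the count of partners by role were added after they were seen. The members and gene lists were chosen with earlier results of these data known. The fits and correlations were tested on simulated data. The number of arrays limits the precision. Alternatives were other scalings (75th percentile, median, spike-in controls), normexp background, the deposited table, other filters, slide as a block, array weights, brightness and leukocyte covariates, and each array left out.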

Additional observations from a re-analysis of the deposited data

Results flagged for a closer look

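Within the 6 groups, 7 of the 72 sets of values tested had 1 pig set far apart from the rest of its group, by the gap to the nearest pig over the range of the group; chance gives such a gap in about 1 set in 20. HSP70 probe 1, listed under HSPA6, had 12.78 in Creole TN replicate 2, where the next pig had 8.76. The same probe had 10.62 in Creole HS replicate 2, where the next pig had 8.72. HSPA13 probe 1 had 8.17 in Creole TN replicate 2, where the next pig had 7.73. HSPA14 probe 1 had 9.73 in Creole TN replicate 1, where the next pig had 9.50. HSPA1L had a low value of 6.29 in Creole HS replicate 2, where the next pig had 7.30, and a high one of 7.76 in F1 TN replicate 6, where the next pig had 7.11. HSPA4 probe 1 had 8.99 in Large White HS replicate 1, where the next pig had 8.81. No cause was tested for any of these values.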

How the results depend on the processing

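For HS minus TN the count of called member probes was 1 of 13, HSPA2 probe 1, under 75th percentile, median and spike-in scaling, normexp background, probes well above background on every array, slide as a fixed or random block and array weights. It was 1 of 20 with the further probes added, HSPA9 further probe 1, a choice made after seeing the data. That probe came from the study's own list of differentially expressed genes. The count of called member probes ran from 0 to 2 with 1 array left out. It was 2, with HSPA13 as well, without Large White HS replicate 2 or Large White TN replicate 6, and 1 without Creole TN replicates 2 or 5, Creole HS replicates 3 or 4, F1 TN replicates 2 or 6, F1 HS replicates 3 or 4, Large White TN replicates 2 or 4 or Large White HS replicate 6. The adjusted p of HSPA2 probe 1 ran from 0.0279 to 0.0880 over the arrays left out, and that of HSPA2 from 0.0219 to 0.884 over 13 alternatives. The value of 0.884 belongs to the mean of both HSPA2 probes.

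Within Creole the count was 0 under 75th percentile scaling (HSPA13 0.62, adjusted p = 0.0513), spike-in scaling (0.69, 0.139), no filter (0.57, 0.0533), slide as a fixed block (0.53, 0.0681) and both covariates, and from 0 to 1 with 1 array left out. It was 0 without Creole TN replicates 1, 4, 5 or 6 or Creole HS replicates 1, 3, 4, 5 or 6 (HSPA13 from 0.50 to 0.60 there, adjusted p from 0.0556 to 0.133). For Creole minus Large White it was 0 with TN arrays alone and 2 of 20 with the further probes added. Called partners were 1 under spike-in scaling and with brightness, and ran from 4 to 6 with 1 array left out. Called pairs of members by Pearson's r were 1 with brightness removed and 3 with slide means removed, and by rho 4 and 3. The cause of these moves was not tested. Fewer arrays enter the TN fit, and the part of this was not tested either.

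The sign of small differences between HS and TN changed for HSPA13 with the leukocyte covariate (-0.0191, adjusted p = 0.923), for HSPA14 with brightness (-0.0415), the leukocyte covariate (-0.0218), the mean of its probes (-0.0018) and 1 array left out (-0.0125 to 0.0281), for HSPA4 under median (0.0016) and spike-in scaling (0.0784), for HSPA9 under spike-in scaling (0.0219) and the leukocyte covariate (0.0341), and for HSPH1 with brightness (-0.0054). HSP70, HSP70.2, HSPA8, HSPA1L and HSPA2 kept their sign under all 13 alternatives. HSPA4 probe 1 kept its breed call in 12 of 13. No analysis paired by litter was possible because the labels do not give the litter. They also give no replicate numbers, and those used here only name the arrays.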
